A study of Macaca mulatta with 20 samples.

Results

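Transcripts of 10 genes that mark endothelial cells, the cells that line blood vessels, were followed through the life of the rhesus macaque corpus luteum. The genes were PECAM1, CDH5, VWF, ENG, EMCN, CLDN5, ERG, ROBO4, EGFL7 and MMRN2. Their probe sets were taken by name alone, as every probe set of the array whose platform annotation gives that symbol and no other. No measured value entered that step, although the 10 genes were chosen with earlier results of these data known. All 10 genes were found, on 20 of the 52707 probe sets tested, among 14132 genes with a symbol of their own. PECAM1, EMCN and ERG had 3 probe sets each, CDH5, VWF, ENG and ROBO4 had 2 each, and CLDN5, EGFL7 and MMRN2 had 1 each. Unless another probe set is named, a gene is given by whichever of its probe sets averaged highest across the arrays.

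The corpus luteum, the gland left by the ovulated follicle, is the source of progesterone after ovulation. Its RNA was measured in 20 glands, each on its own Affymetrix array, with 4 glands at each of 5 stages of natural cycles in females that cycled normally. Days count from the surge of luteinizing hormone, which was placed from the daily serum estradiol. The early stage (days 3 to 5) is that of luteinization, the mid stage (days 7 to 8) that of the highest progesterone output, and the mid-late stage (days 10 to 12) precedes luteal regression. Progesterone secretion ends at the late stage (days 14 to 16), and at the very-late stage (days 18 to 19), the time of menses, the gland is broken down. Whole glands were frozen, so every value is a mix of all luteal cell types. The labels call the samples biological replicates without saying which animal each came from, so p-values measure the spread between these glands.

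The corpus luteum is among the most densely vascularised tissues of the body. Sprouts from the vessels around the follicle grow into the ruptured follicle after ovulation, and in the mature gland most steroid-secreting cells lie against a capillary. The vessels later regress with the gland. Endothelial cells are held together by a cadherin and by claudins, present PECAM1 at their contacts, store von Willebrand factor, and owe much of their gene programme to transcription factors of the ETS family such as ERG.

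The deposited values are log2 signals, and a difference of 1 is a doubling on that scale. Probe sets for viral genomes served as a measure of background, and 95% of them lay below 4.29. All 10 members had a mean over the 20 arrays above that level, although ROBO4 (4.82) and MMRN2 (4.83) lay close to it. Each was thus detected in the tissue as a whole, which does not show from which cells its signal came. Some arrays stood apart. In very-late replicate 1 the 3′ end of GAPDH exceeded the 5′ end by 2.70 log2 units, against 0.831 to 1.78 on the other 19 arrays, and very-late replicate 2 was the array least like its own stage (r = 0.973 with that stage's mean). The mean of 6 mitochondrial probe sets was 7.02 to 8.93 on 7 arrays (early replicate 4, the 4 mid arrays, mid-late replicate 1 and very-late replicate 2) and 11.50 to 12.45 on the other 13. For most of the named genes, very-late results are given over all arrays and also without very-late replicates 1 and 2. The latter are given as a difference, an adjusted p or both.

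Across the 5 stages, 3 of the 10 genes changed and 7 did not pass the test. EMCN, MMRN2 and ENG passed limma's moderated F test for any difference between stages, with adjusted p of 0.00167, 0.00625 and 0.00806. In probe sets, 4 of the 20 members passed, among which EMCN counts with 2, and 21.5% of all probe sets tested did so. In a fit on the 21412 probe sets with a mean above the background level 47% passed. With 1 probe set per gene 36% of 14132 genes passed. The members were thus not called more often than other probe sets. EMCN and MMRN2 were highest at mid-late or late and lowest at very-late, ENG was highest at early, and PECAM1, CDH5, VWF, CLDN5, ERG, ROBO4 and EGFL7 stayed within ranges of stage means of 0.27 to 0.60 log2 units.

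**Figure D1:**
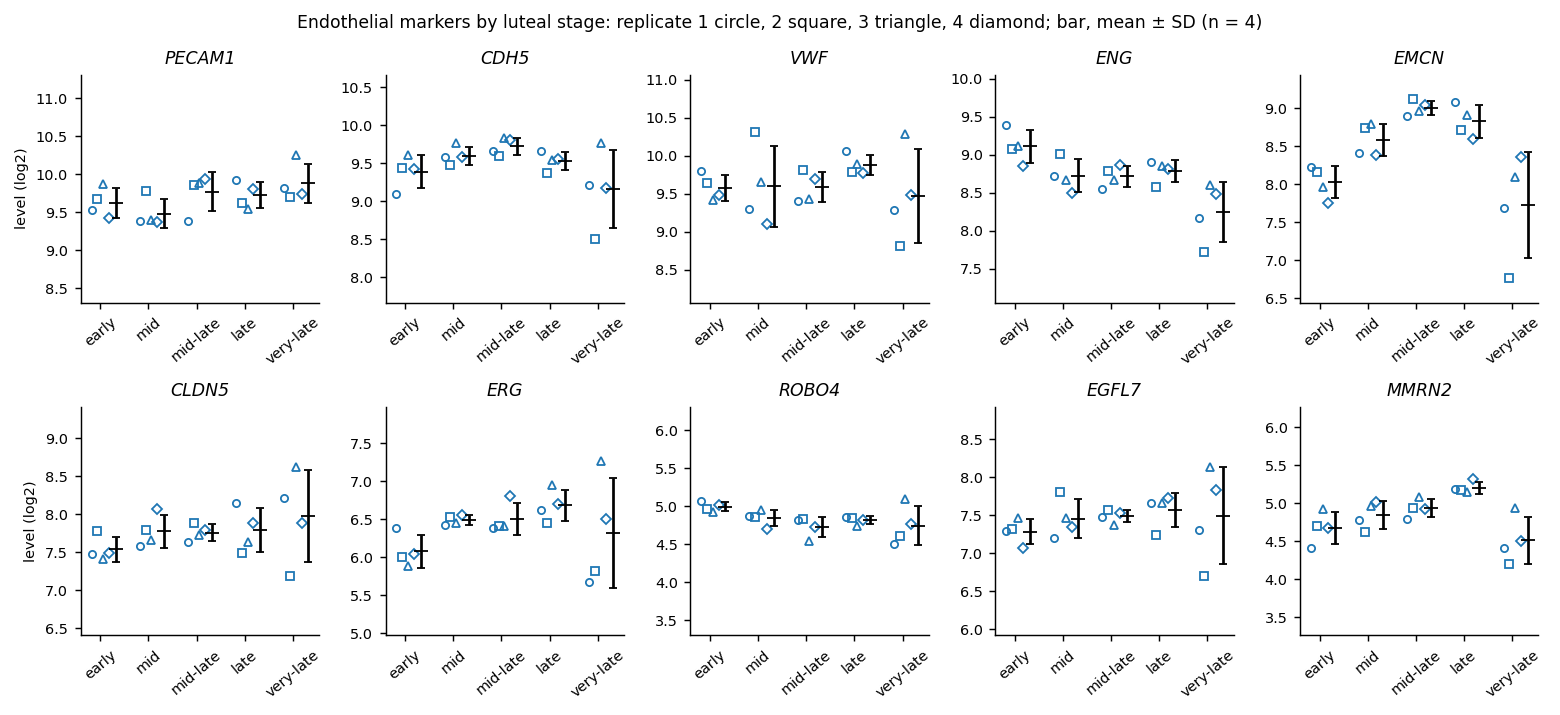
Log2 signal (vertical axis) of the 10 endothelial genes in each of the 20 glands, by luteal stage from early to very-late (horizontal axis), 1 panel per gene, with points for arrays and bars for the stage mean ± SD (n = 4). EMCN climbs to 9.01 at mid-late and lies at 7.73 at very-late, ENG is highest at early, and the 4 very-late glands are spread more widely than those of the other stages in 9 of the 10 panels.

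EMCN, endomucin, is a sialomucin of the surface of capillary and venous endothelium. Its log2 signal was 8.23, 8.16, 7.96 and 7.76 in the 4 early glands, 8.41, 8.75, 8.79 and 8.39 in the mid glands, and 8.90, 9.12, 8.96 and 9.04 in the mid-late glands. It was 9.08, 8.72, 8.91 and 8.60 in the late glands and 7.70, 6.77, 8.10 and 8.37 in the very-late glands. All mid, mid-late and late values lay above all early values, and all very-late values lay below all late values, while very-late and early values overlapped. EMCN was 1.97-fold higher at mid-late than at early (log2 difference 0.98 ± 0.23, SE, adjusted p = 0.0257) and 1.74-fold higher at late than at early (0.80 ± 0.23, adjusted p = 0.0432). At very-late it fell by 1.10 log2 units relative to late, which is 2.14-fold (SE 0.23, adjusted p = 0.0032). The differences of 0.56 at mid against early and -0.30 at very-late against early did not pass, with adjusted p of 0.384 and 0.472, and the second was 0.20 without very-late replicates 1 and 2 (adjusted p = 0.476).

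The EMCN differences from the early stage sat near the threshold. Late against early passed in only 7 of the 20 fits that left out 1 array. It was lost, with adjusted p from 0.0505 to 0.124, without early replicate 2, 3 or 4, mid replicate 1 or 3, any mid-late replicate or any late replicate, although the log2 difference stayed between 0.71 and 0.88. Mid-late against early passed in 14 of the 20 and was lost without early replicate 3 or 4 (adjusted p = 0.0719 and 0.0795) or without any of the mid-late replicates (0.0514 to 0.0679). The very-late fall passed in all 20 such fits, and without very-late replicates 1 and 2 it was -0.60 (adjusted p = 0.0216), but in the fit on the 8 late and very-late arrays alone it did not pass (adjusted p = 0.0685). In the fit without very-late replicates 1 and 2, mid against early passed as well (0.56, adjusted p = 0.0448), and late and mid-late against early had adjusted p of 0.000688 and 0.000709.

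EMCN had 2 further probe sets. The second (MmugDNA.16107.1.S1_at) ran with the first at r = 0.95 over the 20 arrays. It was 8.32, 8.66, 8.46 and 8.44 in the mid-late glands against 7.42, 7.46, 7.45 and 7.36 in the early glands, and its differences were 1.05 ± 0.22 at mid-late against early (adjusted p = 0.0132), 0.98 ± 0.22 at late against early (adjusted p = 0.0100) and -1.15 ± 0.22 at very-late against late (adjusted p = 0.0014). The last was -0.62 without very-late replicates 1 and 2 (adjusted p = 0.0137) and did not pass in the fit on 8 arrays (0.0526). The early glands were nearly alike by this probe set, and all mid-late, late and mid values lay above them. The third (MmugDNA.16324.1.S1_at) was 3.95 in early replicate 4, against 6.46, 6.69 and 6.21 in the other early glands, and passed only at late against early (1.57 ± 0.46, adjusted p = 0.0449), a call kept in 5 of the 20 fits that left out 1 array and lost in the fit on 8 arrays (0.112). It correlated with the other EMCN probe sets at r = 0.63 each. It was also the only one of the 20 member probe sets that differed between the mitochondrial array groups, by 1.64 ± 0.20 log2 units higher on the 13 arrays with high mitochondrial signal, fitted with the stages in the model (adjusted p = 0.00117). Over all probe sets, 72 (0.137%) passed that test. With a term for that split the third probe set also passed at mid, mid-late and very-late against early, by 1.93, 1.26 and 0.61 (adjusted p = 0.0149, 0.00336 and 0.0495). All 4 mid arrays are in the low group, so the mid value rests on a shift estimated in other stages. Without the term the mid difference was 0.69 (adjusted p = 0.677).

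**Figure D2:**
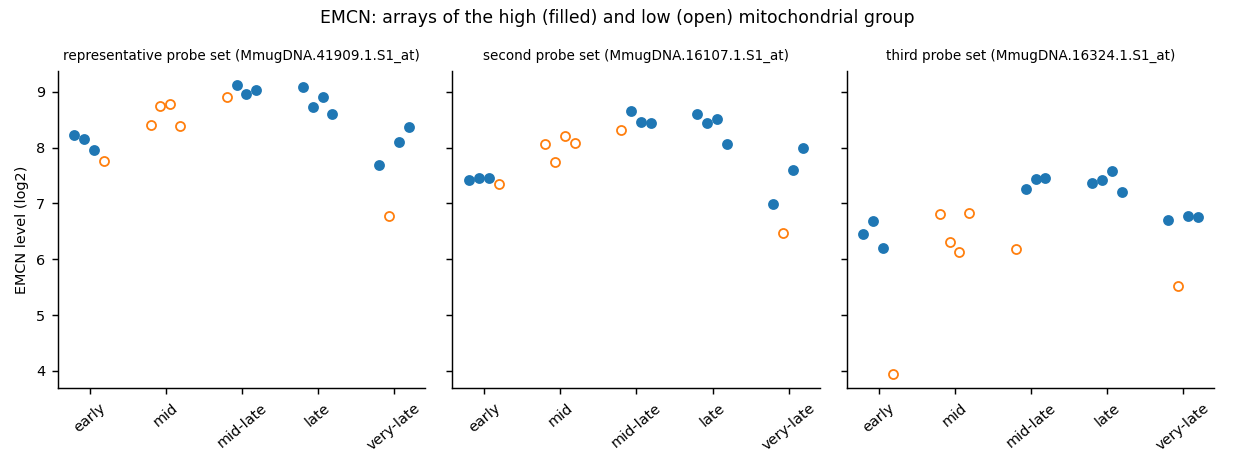
Log2 signal (vertical axis) of the 3 EMCN probe sets in the 20 glands by luteal stage (horizontal axis), with filled points for arrays of high and open points for arrays of low mitochondrial signal. The first and second probe sets run together, while the third is lowest on arrays of low mitochondrial signal, with 3.95 in early replicate 4 and 5.51 in very-late replicate 2.

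MMRN2, multimerin 2, is an endothelial protein of the extracellular matrix that binds CD93 and vascular growth factors. Its log2 signal was 4.41, 4.69, 4.92 and 4.67 in the early glands, 4.78, 4.62, 4.96 and 5.01 in the mid glands and 4.79, 4.93, 5.08 and 4.92 in the mid-late glands. It reached 5.18, 5.17, 5.14 and 5.32 in the late glands and was 4.41, 4.20, 4.93 and 4.50 in the very-late glands. The late glands lay above every early gland and above every very-late gland. MMRN2 was 1.44-fold higher at late than at early (0.53 ± 0.13, SE, adjusted p = 0.0187) and at very-late fell by 0.69 relative to late, a 1.62-fold decrease (SE 0.13, adjusted p = 0.0012). The first of these was lost without early replicate 1 (0.44, adjusted p = 0.0591) or without late replicate 4 (0.49, adjusted p = 0.0588), and the second was -0.49 without very-late replicates 1 and 2 (adjusted p = 0.0403). With values this near to the background level, log2 differences may understate the change in the transcript.

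ENG, endoglin, is a co-receptor for ligands of the TGF-beta family that is abundant on growing endothelium and is also carried by macrophages. It ran the other way over early luteal life. Its log2 signal was 9.39, 9.08, 9.12 and 8.86 in the early glands, 8.72, 9.01, 8.67 and 8.50 in the mid glands and 8.55, 8.78, 8.67 and 8.87 in the mid-late glands. It was 8.91, 8.58, 8.85 and 8.81 in the late glands and 8.17, 7.72, 8.60 and 8.48 in the very-late glands. All very-late values lay below all early values, but very-late replicate 3 overlapped the late glands. ENG fell by 0.87 log2 units at very-late relative to early, which is 1.82-fold (SE 0.16, adjusted p = 0.000673), and the difference was -0.57 without very-late replicates 1 and 2 (adjusted p = 0.0121). Relative to late it fell by 0.54 at very-late (SE 0.16, adjusted p = 0.0293). That call was lost without late replicate 1, 3 or 4 or very-late replicate 1 or 2 (adjusted p = 0.0670 to 0.101), under cyclic loess scaling (-0.44, adjusted p = 0.0917) and in the fit on 8 arrays (0.122), and without both very-late replicates 1 and 2 the difference was -0.24 (adjusted p = 0.403). Mid, mid-late and late against early gave -0.39, -0.39 and -0.32 and did not pass, with adjusted p of 0.376, 0.222 and 0.285. The second ENG probe set, at 5.10 to 5.59 over the 20 arrays, did not pass and did not follow the first (r = 0.07).

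The genes of endothelial contacts gave no difference past the test in any of the 7 comparisons. PECAM1, an adhesion molecule of endothelial contacts that platelets and leukocytes also carry, averaged 9.62 ± 0.19 at early, 9.48 ± 0.20 at mid, 9.77 ± 0.26 at mid-late, 9.72 ± 0.17 at late and 9.88 ± 0.25 at very-late (SD, n = 4 each). Very-late against late gave 0.16, with a 95% confidence interval of -0.15 to 0.46 (adjusted p = 0.593). The intervals of the other 2 PECAM1 probe sets were wider, -0.48 to 0.56 and -0.37 to 0.34. CDH5, the cadherin of endothelial junctions, averaged 9.39 ± 0.22 at early, 9.60 ± 0.12 at mid, 9.73 ± 0.11 at mid-late, 9.53 ± 0.12 at late and 9.17 ± 0.51 at very-late. Its very-late values were 9.21, 8.51, 9.77 and 9.18, against 9.66, 9.38, 9.54 and 9.55 at late. The difference of -0.37 did not pass (interval -0.74 to 0.0026, adjusted p = 0.211). Without very-late replicate 3, the highest of those glands, it was -0.57 and passed (adjusted p = 0.0133), and without very-late replicates 1 and 2 it was -0.06 (adjusted p = 0.896). CLDN5, a claudin of endothelial tight junctions, averaged 7.98 ± 0.61 at very-late and 7.54 ± 0.16 at early. That difference of 0.44 did not pass (interval -0.02 to 0.89, adjusted p = 0.197), and it passed at 0.70 without very-late replicate 2 (adjusted p = 0.0062) and at 0.72 without very-late replicates 1 and 2 (adjusted p = 0.0180).

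The secreted products were similar in this respect. VWF, the clotting factor that endothelium stores and releases, measured 9.29, 8.82, 10.29 and 9.48 at very-late against 10.07, 9.79, 9.90 and 9.78 at late. The very-late glands lay both above and below the late ones, and the difference of -0.41 did not pass (interval -0.95 to 0.12, adjusted p = 0.363). It passed at -0.69 without very-late replicate 3 (adjusted p = 0.0459) and was 0.01 without very-late replicates 1 and 2 (adjusted p = 0.995). EGFL7, an endothelial protein of the matrix around vessel sprouts, had the highest adjusted p of the 10 genes over all stages, 0.876, with its highest mean, 7.57, at late and its lowest, 7.28, at early. Its very-late glands spanned 6.70 to 8.14, a wider range than the 7.07 to 7.80 of the 16 earlier glands. Without very-late replicates 1 and 2 EGFL7 was higher at very-late than at early by 0.70 (adjusted p = 0.0049).

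Where a gene of these groups had more than 1 probe set, the others also failed to pass in the fit on all 20 arrays, and they followed the representative one to differing degrees. The correlation over the 20 arrays was 0.93 for CDH5 and 0.29 for VWF, whose second probe set (3.94 to 4.84) lay around the background level. For PECAM1 it was 0.66 and 0.44, and its other 2 probe sets were highest in very-late replicate 2, at 9.63 and 8.83, the gland in which most members were lowest. Without very-late replicate 1 both passed at very-late against early, by 0.46 and 0.84 (adjusted p = 0.0349 and 0.00075). Without very-late replicates 1 and 2 MmugDNA.20462.1.S1_at passed at mid-late, late and very-late against early, by 0.48, 0.45 and 0.68 (adjusted p = 0.0326, 0.0324 and 0.0055).

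The regulators among the members did not pass either. ERG, the ETS transcription factor, measured 6.62, 6.46, 6.96 and 6.70 at late against 6.39, 6.00, 5.88 and 6.05 at early. The groups did not overlap, but the difference of 0.60 ± 0.24 had an adjusted p of 0.156. It passed with an adjusted p of 0.0252 in the fit on those 8 arrays and also without very-late replicate 3 (0.0252), and with one of 0.0168 without very-late replicates 1 and 2. At very-late ERG was 5.68, 5.82, 7.27 and 6.51, with its lowest and its highest value of the whole series in the same stage. Very-late against early was 0.24 over all 4 glands (adjusted p = 0.592) and 0.81 without very-late replicates 1 and 2 (adjusted p = 0.0059). Very-late against late was -0.36 (adjusted p = 0.403), without very-late replicate 3 it was -0.68 (adjusted p = 0.0112), and without very-late replicates 1 and 2 it was 0.20 (adjusted p = 0.641). ROBO4, a receptor that steadies endothelial junctions, averaged 4.74 ± 0.26 at very-late against 4.99 ± 0.06 at early. The difference of -0.25 did not pass (adjusted p = 0.0964) but did under cyclic loess scaling (-0.30, adjusted p = 0.0265), under median centring (-0.29, adjusted p = 0.0385) and without very-late replicate 3 (-0.37, adjusted p = 0.0035). It was -0.06 without very-late replicates 1 and 2 (adjusted p = 0.778). Its second probe set lay below the background level on every array, at 2.81 to 3.12. The other 2 probe sets of ERG ran with the first at r = 0.85 (MmugDNA.30174.1.S1_at) and 0.77 (MmugDNA.27116.1.S1_at). Neither passed in the fit on all 20 arrays, with late-against-early differences of 1.07 and 0.34 (adjusted p = 0.0890 and 0.164). Both late differences passed in the fit on 8 arrays (0.0101 and 0.0290) and without very-late replicate 3 (0.0403 and 0.0298). Without very-late replicates 1 and 2 they passed as well (0.00246 and 0.0489).

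Comparison by comparison, between 0 and 4 of the 20 member probe sets passed the test. At mid against early, 0 of 20 passed in limma, where 0.362% of all probe sets did, and 3 had an unadjusted p under 0.05 (2 higher, 1 lower). At mid-late against early 2 were higher and 0 lower, both of EMCN, against 3.73% of all probe sets called and 1.62% called higher. At late against early 4 were higher (the 3 of EMCN and that of MMRN2) and 0 lower, against 7.58% called overall and 3.61% called higher. At very-late against late 4 were lower (2 of EMCN, MMRN2 and ENG) and 0 higher, against 13.8% called overall and 7.03% called lower. At very-late against early 1 was lower, ENG, against 18.7% of all probe sets called and 9.21% called lower. Of the 21412 probe sets above the background level, fitted alone, 1.58%, 11%, 19%, 30.5% and 39.5% were called in these comparisons, in the order given. No member passed in limma at mid-late against mid or at late against mid-late, where 0.0114% of all probe sets did in each, with 2 and 0 members at an unadjusted p under 0.05. The median log2 difference of the 10 genes was 0.17 at mid, 0.21 at mid-late, 0.27 at late and -0.14 at very-late, each against early, and -0.37 at very-late against late. Over all 20 member probe sets it was 0.16, 0.28, 0.29 and 0.06 against early and -0.18 at very-late against late, so the sign at very-late against early depends on which probe sets are taken. The median over all probe sets was within 0.02 of 0 in each of these comparisons. Without very-late replicates 1 and 2 the medians of the 10 genes were 0.06 at very-late against late and 0.25 at very-late against early, so both changed sign with those 2 glands (0.06 and 0.34 over the 20 probe sets). The counts at very-late against late were then 3 lower probe sets and 0 higher, with 8.92% of all probe sets called in that fit, and at very-late against early they were 1 lower and 6 higher, with 15.8% called. In a mixed tissue, fewer endothelial cells and less RNA per endothelial cell cannot be told apart.

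**Figure D3:**
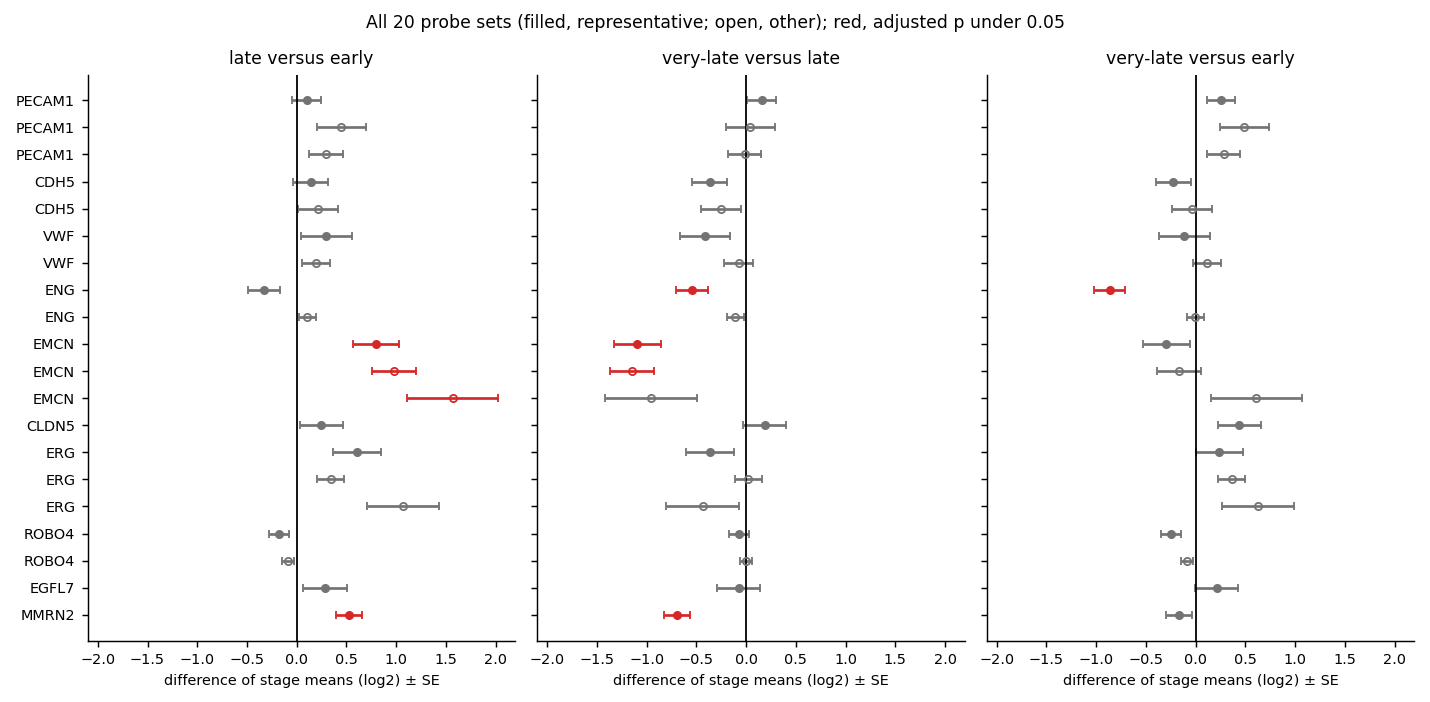
Difference of stage means in log2 units with its SE (horizontal axis) of all 20 probe sets of the 10 endothelial genes (rows), in 3 comparisons, with filled points for the representative probe set, open points for the others and red for an adjusted p under 0.05. Red points lie above 0 at late against early (3 of EMCN, 1 of MMRN2) and below 0 at very-late against late (2 of EMCN, 1 each of ENG and MMRN2) and at very-late against early (ENG).

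The very-late glands differed from each other in endothelial signal more than the glands of any other stage. The median SD of the 10 genes was 0.20 at early, 0.20 at mid, 0.13 at mid-late, 0.16 at late and 0.56 at very-late. Over the 8913 genes with a mean above the background level the corresponding medians were 0.18, 0.17, 0.13, 0.16 and 0.25. Of the 10 members 9 had their largest SD at very-late, PECAM1 having its largest at mid-late by a narrow margin, and 47.3% of the 8913 genes did so. Very-late replicate 3 exceeded very-late replicate 2 in 10 of 10 members, by 0.49 to 1.47 log2 units with a median of 1.29. Over the 8913 genes the median of the same difference was -0.01, and 49.1% were higher in replicate 3. By all probe sets 18 of 20 were higher in replicate 3, the exceptions being the other 2 probe sets of PECAM1, which read 9.56 and 8.56 in replicate 3 and 9.63 and 8.83 in replicate 2.

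Set against their own mean and SD over the 20 arrays, the 10 genes averaged -0.85, -2.02, 1.32 and -0.16 SD in very-late replicates 1 to 4, and between -0.48 and 0.81 SD in the 16 earlier glands. Very-late replicate 2 was the lowest of all 20 arrays for 7 of the genes, and replicate 3 was the highest for 5. VWF was 2.77-fold higher in replicate 3 than in replicate 2, ERG 2.72-fold, EGFL7 2.72-fold, CLDN5 2.71-fold and EMCN 2.51-fold, while PECAM1 was 1.47-fold higher. The array of replicate 2 belongs to the low mitochondrial group and correlated least with its own stage, and that of replicate 1 has the high GAPDH 3′ excess. The part of array quality in the spread was not tested.

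**Figure D4:**
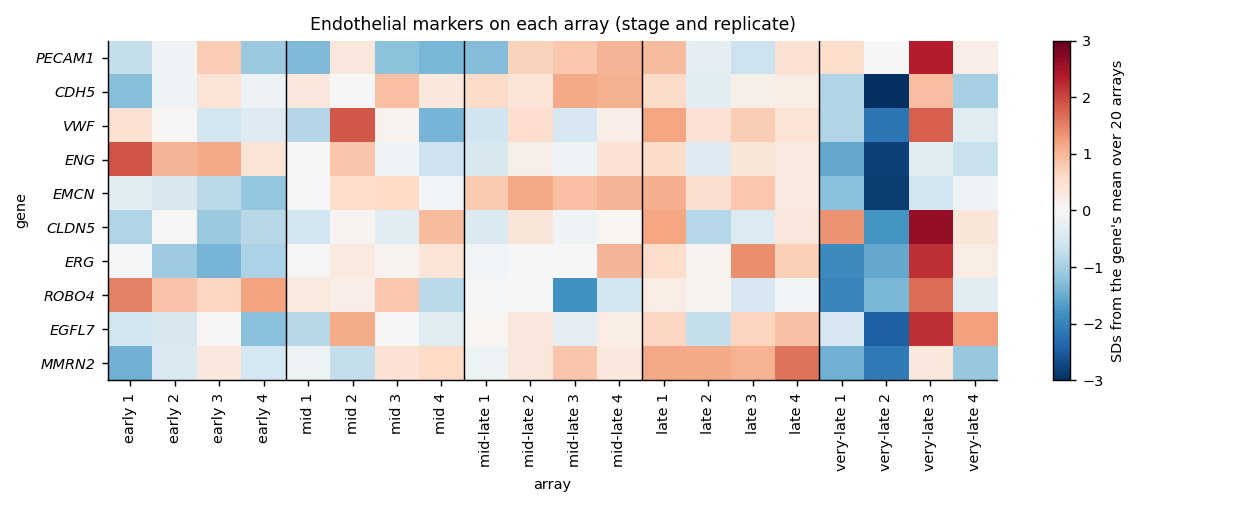
Level of each endothelial gene on each of the 20 arrays (columns, in stage order), as a distance in SD from that gene's mean over all arrays (colour scale). Very-late replicate 2 is low for nearly every gene, with a mean of -2.02 SD, and very-late replicate 3 is high for most, with a mean of 1.32 SD.

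From gland to gland the 10 genes varied together. Over the 20 arrays the 45 pairs had Pearson correlations of -0.05 to 0.75, with a median of 0.45. With each stage's mean taken away the correlations were 0.21 to 0.86, with a median of 0.57, and all 45 were above 0. EGFL7 followed the mean of the other 9 most closely (r = 0.81, and 0.91 within stages), ROBO4 and PECAM1 followed it least over the arrays (0.31 and 0.32), and MMRN2 least within stages (0.54). The points share array scaling, and the 4 very-late arrays have the greatest weight in them.

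Among 14122 other genes, those whose level ran most like the mean of the 10 over the 20 arrays were GSTM4 (r = 0.916), SMTN (0.891), VASH1 (0.869), RASIP1 (0.858), RHOJ (0.849), ARHGEF15 (0.839), PIGT (0.836), TSPAN9 (0.833), NOTCH3 (0.832) and CD320 (0.832). RASIP1, RHOJ and ARHGEF15 are regulators of small GTPases known from endothelium, and VASH1, vasohibin, is an endothelial inhibitor of vessel growth. NOTCH3 is a receptor of mural cells, the pericytes and smooth muscle cells that surround vessels, and SMTN, smoothelin, is a protein of smooth muscle. Within stages the nearest were ADPRS (0.962), SCRN1 (0.927), SPOCK2 (0.913), RASIP1 (0.907), NSG1 (0.906), CD320, GSTM4 and PLCG1 (0.905 each), NDST1 (0.898) and ARAP3 (0.895). RASIP1, CD320 and GSTM4 stood in both lists.

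Other genes of the endothelium passed the test in both directions. Of a further list of 40 pan-endothelial genes 29 were measured. At late against early 7 were higher and 1 lower, at very-late against late 3 were higher and 5 lower, and at very-late against early 10 were higher and 4 lower, where 7.58%, 13.8% and 18.7% of all probe sets passed. In a fit with 1 probe set per gene, as the lists here and below are counted, 14.4%, 23.5% and 31.2% of genes passed. The list's median differences in those comparisons were 0.45, -0.17 and 0.24. Of the growth factor receptors, KDR, the main receptor for VEGF, averaged 4.10 ± 0.27 at early, 5.10 ± 0.63 at mid, 5.41 ± 0.31 at mid-late, 5.24 ± 0.28 at late and 4.29 ± 0.32 at very-late. Its early and very-late levels are near the background level. KDR was higher by 1.13 ± 0.25 at late than at early (adjusted p = 0.0094) and fell by 0.94 at very-late relative to late (SE 0.25, adjusted p = 0.0165), the second being lost without late replicate 3, very-late replicate 1 or both very-late replicates 1 and 2 (adjusted p = 0.0602, 0.0596 and 0.196).

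TEK, the receptor for angiopoietins, had its highest mean at very-late. It averaged 7.21 ± 0.31 at early, 7.72 ± 0.08 at mid, 7.73 ± 0.24 at mid-late, 7.94 ± 0.16 at late and 8.30 ± 0.44 at very-late, and was higher than at early by 0.73 ± 0.18 at late (adjusted p = 0.0176) and by 1.09 ± 0.18 at very-late (adjusted p = 0.000242), or by 1.33 without very-late replicates 1 and 2 (2.98e-05). The late difference was lost without early replicate 2 or 4 or late replicate 4 (adjusted p = 0.0521 to 0.0661). PTPRB, a phosphatase that restrains TEK, was higher at late than at early by 1.05 ± 0.13 (adjusted p = 0.000139), and so was SOX17, a transcription factor of arterial endothelium, by 0.82 ± 0.20 (adjusted p = 0.017), a call lost without late replicate 1 or 4 (0.0544 and 0.0557). TM4SF1 was the gene of this list that was lower at late than at early (-0.65 ± 0.15, adjusted p = 0.0111), and it was picked out after its value was seen. At very-late against late CLEC14A, an endothelial surface lectin, was higher by 0.83 ± 0.19 (adjusted p = 0.0045), FLI1, an ETS factor of endothelium and blood cells, by 0.77 ± 0.19 (adjusted p = 0.0089), and ICAM2, an adhesion molecule of endothelium and leukocytes, by 0.65 ± 0.17 (adjusted p = 0.0123). Without very-late replicates 1 and 2 the differences of CLEC14A and FLI1 were 1.06 and 0.96 (adjusted p = 0.00148 and 0.0108), that of ICAM2 had an adjusted p of 0.0879, and the counts of these further pan-endothelial genes were then 3 higher and 0 lower at very-late against late, 15 higher and 1 lower at late against early, and 13 higher and 2 lower at very-late against early, where 8.92%, 10.2% and 15.8% of all probe sets were called in that fit.

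Among the vascular lists, genes listed for particular vessel segments gave the largest differences at very-late. ESM1, a proteoglycan of sprouting tip cells, averaged 5.60 ± 0.88 at very-late against 8.70 ± 0.24 at late and fell by 3.10 log2 units (SE 0.39, adjusted p = 2.23e-05). The difference was -2.73 without very-late replicates 1 and 2 (adjusted p = 0.000183). At very-late against late 13.8% of all probe sets were called, and 23.5% of genes with 1 probe set each. Of 13 measured arterial and tip cell genes 2 were lower there and 0 higher. They were ESM1 and the gap junction gene GJA4 (-0.80 ± 0.16, adjusted p = 0.0021), and the second was lost without very-late replicates 1 and 2 (adjusted p = 0.0558) and in the fit on 8 arrays (0.0624). At late against early GJA4 and EFNB2, the ephrin of arteries, were higher, by 0.71 ± 0.16 and 0.94 ± 0.25 (adjusted p = 0.0114 and 0.0286). EFNB2 was lost without early replicate 1, 2 or 3 or late replicate 1 or 4 (adjusted p = 0.0663 to 0.0835).

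Of 13 measured capillary and venous genes, 4 were higher and 2 lower at very-late than at late, where 13.8% of all probe sets were called. ACKR1, a chemokine-binding receptor of venules, was 6.38 ± 0.45 at early, 7.10 ± 0.93 at mid, 8.14 ± 0.13 at mid-late, 8.42 ± 0.35 at late and 6.54 ± 0.70 at very-late. It was higher at late than at early by 2.04 ± 0.38 (adjusted p = 0.0028) and fell by 1.88 at very-late relative to late (SE 0.38, adjusted p = 0.0021), or by 1.28 without very-late replicates 1 and 2 (adjusted p = 0.0679). CD36, a fatty acid receptor of capillaries that macrophages also carry, was 9.93 ± 0.48 at very-late against 6.50 ± 0.24 at late and rose by 3.43 ± 0.27 (adjusted p = 9.57e-08). NRP2, a semaphorin and VEGF-C receptor, was higher by 1.33 ± 0.13 (adjusted p = 1.97e-06). VCAM1 was lower by 0.90 (adjusted p = 0.0434), but not under cyclic loess scaling (0.0756), the term for the mitochondrial split (0.0751) or the fit on 8 arrays (0.0583), and not without mid-late replicate 1 or 4, late replicate 2, 3 or 4 or very-late replicate 1, 2 or 3 (0.0506 to 0.148) or both very-late replicates 1 and 2 (0.269). Of 7 measured lymphatic genes LYVE1, a hyaluronan receptor that some macrophages also carry, was the 1 that fell at very-late relative to late, by 1.71 (SE 0.15, adjusted p = 4.01e-07). The list's share is near the 13.8% of all probe sets and below the 23.5% of genes with 1 probe set each. Without very-late replicates 1 and 2 the differences of CD36, NRP2 and LYVE1 were 3.05, 1.05 and -1.47, with adjusted p of 3.97e-06, 2.25e-05 and 3.23e-06.

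Genes of the cells that surround vessels were called in 1 direction only. Of 7 measured genes of pericytes and smooth muscle, 4 were lower at very-late than at late and 0 higher, where 13.8% of all probe sets were called. They were MCAM, which endothelium also carries (-1.94 ± 0.27, adjusted p = 5.68e-05), KCNJ8 (-1.05 ± 0.30, adjusted p = 0.0217), CSPG4 (-0.46 ± 0.11, adjusted p = 0.0091) and TAGLN (-0.90 ± 0.29, adjusted p = 0.0499). TAGLN passed in 6 of the 20 fits that left out 1 array, with adjusted p up to 0.174, and not under cyclic loess scaling (0.0899) or in the fit on 8 arrays (0.170). KCNJ8 was lost without late replicate 2, 3 or 4 or very-late replicate 2 (adjusted p = 0.0559 to 0.0812), and KCNJ8 and CSPG4 were lost without very-late replicates 1 and 2 (0.144 and 0.0765). Without those 2 glands 2 of the 7 were lower, MCAM (-1.24, adjusted p = 2.41e-05) and TAGLN (-1.02, adjusted p = 0.0200). In linear signal summed over each list, the 7 genes gave 1575 to 2680 in the very-late glands against 3090 to 3882 in the late glands. The 10 endothelial genes summed to 2314 to 4902 at very-late against 3628 to 4521 at late, so the very-late range encloses the late one. Linear sums weigh the brightest genes most. By mean log2 signal these were TAGLN (10.10) and MCAM (9.77) among the 7 genes. Among the 10 they were PECAM1 (9.69), VWF (9.62) and CDH5 (9.48). By gland the very-late sums of the 10 genes were 3167, 2314, 4902 and 3447.

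Markers of macrophages and of steroid-secreting cells changed by larger amounts over the same interval, in which 13.8% of all probe sets were called. Of 14 macrophage markers 8 were higher at very-late than at late and 0 lower (median difference 1.71), and their summed signal was 17605 to 28282 at very-late against 4974 to 8454 at late. CD68, the lysosomal marker of macrophages, rose by 2.70 ± 0.27 (adjusted p = 1.84e-06). By very-late gland the macrophage sums were 19126, 28282, 17605 and 19900, so the gland lowest in endothelial signal, replicate 2, was the highest in macrophage signal, and replicate 3 was the other way about. Of 9 markers of steroid-secreting luteal cells 6 were lower and 0 higher (median -2.73), with sums of 2560 to 6211 at very-late against 20929 to 25701 at late, and STAR, the cholesterol carrier of steroid synthesis, fell by 4.22 (SE 0.38, adjusted p = 4.33e-07). Without very-late replicates 1 and 2 the counts were 7 higher of the macrophage markers and 6 lower of the steroid cell markers, with 2.46 for CD68 (adjusted p = 6.11e-05) and -3.15 for STAR (adjusted p = 6.37e-10). The sums of 9 platelet markers, the other main source of VWF, were 170.2 to 187.9 at very-late against 162.0 to 185.0 at late, with 0 of 9 past the test in limma and 1 higher at an unadjusted p under 0.05. Only 4 of the 9 had a mean above the background level, so these sums bear little on platelet content. Arrays scaled to a common level report each gene relative to all RNA of the gland, and the part of these shifts in cell make-up in the endothelial differences was not tested. Of 12 cell division genes 12 were lower at late than at early, where 7.58% of all probe sets were called, among them MKI67, a marker of cycling cells (-1.38 ± 0.26, adjusted p = 0.0026), and the tissue's dividing cells cannot be assigned to endothelium from these data.

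**Figure D5:**
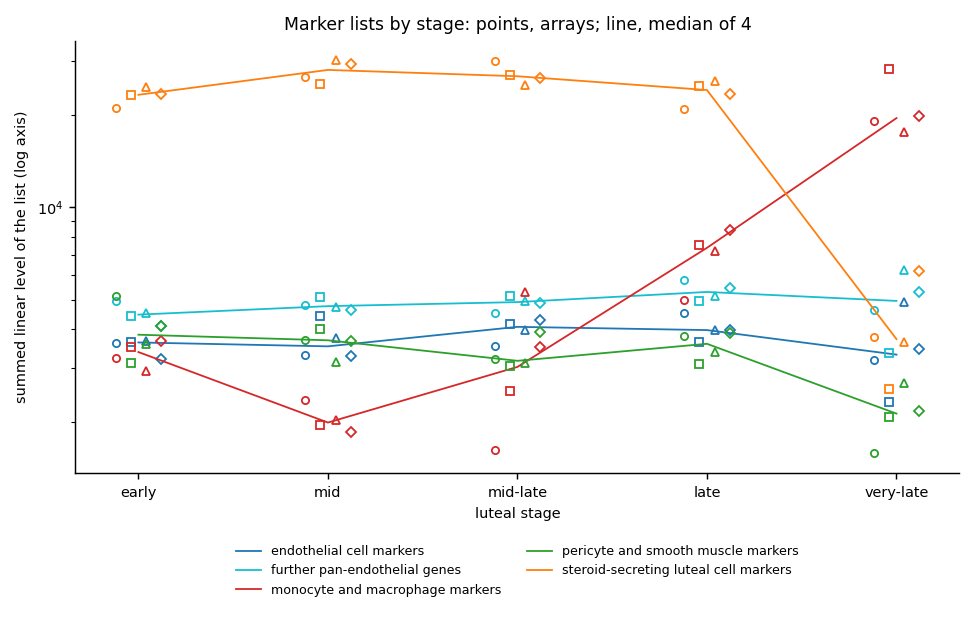
Summed linear signal (vertical axis, log scale) of 5 marker lists in the 20 glands by luteal stage (horizontal axis), with circles, squares, triangles and diamonds for replicates 1 to 4 and lines for the median of the 4 glands. The 10 endothelial genes keep overlapping ranges throughout, at 2314 to 4902 at very-late, while the macrophage sum reaches 17605 to 28282 and that of luteal steroid cells drops to 2560 to 6211.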

How the data were processed

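Total RNA of 20 corpora lutea was labelled with biotin and hybridised to 1-colour Affymetrix rhesus arrays. The deposited log2 values came from RMA as run by the authors, according to the submitters' processing notes. Its version, the probe set definitions and filters are not given in the sources used here. The values run from 2.48 to 14.28, with array medians of 3.88 to 3.98, and were used as deposited. The file holds 52865 probe sets, of which 158 array controls were not tested. A single gene symbol stood on 24956 of the others, several on 361 and none on 27390. Symbols were brought up to date through gene identifiers, of which 24616 matched the current gene table. The background level is the 95th percentile of 683 viral-genome probe sets.

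In R 4.3.3, limma 3.58.1 fitted 5 stage means to all 20 arrays (15 residual and 2.75 prior degrees of freedom), with two-sided moderated tests of 7 comparisons and of any difference. Benjamini-Hochberg adjustment ran over all 52707 probe sets in each, and an adjusted p under 0.05 counts as passed. The number of arrays limits the precision. Sums over a list are of linear signal, and summed levels, correlations and likeness to the members' mean are descriptions with no test. The procedure was tested on simulated data with the same spread in every stage, so that test does not cover the wider spread of the very-late glands.

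Named genes were the 10 members with every probe set; up to 4 genes past the test per further list and comparison, largest first; the 10 genes most like the members' mean, over arrays and within stages; and CD68, STAR, MKI67, PDGFRB, KDR and TEK whatever their result. PDGFRB had no probe set with its symbol alone. The members, lists and rules were chosen with earlier results of these data known. Replicate numbers come from the labels and did not pair the arrays: same-numbered glands of different stages deviated from their stage means with correlations of -0.21 to 0.21 (median -0.02, 40 pairs). Alternatives were median centring, cyclic loess scaling, a filter on dim probe sets, the replicate number as a block, 8-array fits, a term for the mitochondrial split, 1 probe set per gene, averaging the probe sets of a gene, and leaving out arrays. Their use on the further lists was added after seeing the data. Promoter and protein sequences were not used here.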

Additional observations from a re-analysis of the deposited data

Results flagged for a closer look

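In 7 of the 100 groups of 4 glands examined (20 probe sets at 5 stages), 1 gland lay far from the other 3 by Dixon's criterion, which chance alone meets in about 1 of 20 groups. PECAM1 accounted for 2 of them. It was 9.77 in mid replicate 2, against 9.37, 9.38 and 9.40 in the other mid glands, and 9.39 in mid-late replicate 1, against 9.86, 9.89 and 9.94. The third EMCN probe set was 6.19 in mid-late replicate 1, against 7.26, 7.44 and 7.45, and 5.51 in very-late replicate 2, against 6.70, 6.76 and 6.77. Both of these glands belong to the group of low mitochondrial signal. ERG was 6.81 in mid-late replicate 4, against 6.38, 6.41 and 6.41. EGFL7 was 7.24 in late replicate 2, against 7.65, 7.66 and 7.73. The second ENG probe set was 5.59 in mid-late replicate 3, against 5.44, 5.44 and 5.45.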

How the results depend on the processing

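Counts of member probe sets past the test moved by more than 1.5 times under some settings. Without very-late replicates 1 and 2, 9 passed for any difference between stages (4 on all arrays), 2 at mid against early (0), 4 at mid-late against early (2), 8 at late against early (4) and 7 at very-late against early (1), where 18.8%, 1.16%, 6.13%, 10.2% and 15.8% of all probe sets passed in that fit, against 21.5%, 0.362%, 3.73%, 7.58% and 18.7% on all arrays. In the fits on the 8 arrays compared, 7 passed at late against early (4) and 1 at very-late against late (4), MMRN2, where 8.3% and 8.68% of all probe sets passed. With the replicate block 2 passed at late against early, EMCN being lost on its representative and on probe set MmugDNA.16324.1.S1_at (adjusted p = 0.0662 and 0.0723), and the block changed no other call of a member probe set. The term for the mitochondrial split gave 1 at mid against early, although all 4 mid arrays are in the low group. It gave 3 at very-late against early, where cyclic loess and median centring gave 2 each. Leaving out 1 array at a time gave 4 to 8 for any difference, 1 to 3 at mid-late against early, 1 to 7 at late against early, 1 to 4 at very-late against early and 3 to 7 at very-late against late. At mid against early it gave 0, as it did at mid-late against mid and late against mid-late. The highest counts at late against early, at very-late against late and for any difference came without very-late replicate 3, and the lowest at late against early without late replicate 4. No result past the test changed direction under any setting. Of 1813 member values past the test in neither fit, 62 changed sign. The causes of these shifts were not tested. MMRN2, ROBO4 and the second VWF probe set lie near the background, where a change is harder to see.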
